A study of Homo sapiens with 15 samples.

Results

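The genes described here are 6 metallothioneins (MT1E, MT1F, MT1G, MT1M, MT1X and MT2A) and the zinc exporter SLC30A1, 7 of the 58721 genes in the tables. They were chosen by name, with earlier results of these data known. Their expression was read in MelJuSo, a human melanoma cell line, by RNA sequencing of 5 derived lines with 3 libraries each (replicates A, B and C). In 4 of the lines, dCas12a, a Cas12a that binds DNA without cutting it, carries a 5xALFA tag and the activation domain VP64. A nanobody that binds this tag brings VP64 in one pair of these lines and p65, from the RELA protein, in the other pair. Each pair consists of a line with a cassette of 3 guides against CD4 and a line with no guides. The remaining line, called here the line without an activation domain, holds 5xALFA-dCas12a that lacks VP64, the nanobody alone and no guides. The nanobody of this line is named in its vector label and not in its description. Per the vector labels, tagged dCas12a and a nanobody are thus shared by all 5 lines, and none is an unmodified MelJuSo culture. The line without an activation domain differs from the others in both vectors, and the effects of these vectors cannot be told apart. The labels name neither clones nor pools, nor do they call the replicates separate cultures. The p-values thus cover only the spread between the libraries of a line, which may be technical.

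Metallothioneins are short cytoplasmic proteins rich in cysteine, whose thiols bind zinc, copper and cadmium. The transcription factor MTF1 senses free zinc and drives metallothionein genes and SLC30A1 through short promoter motifs called metal response elements. SLC30A1 (also ZnT1) sits in the plasma membrane and moves zinc out of the cell, and metallothioneins are also known to respond to oxidants, heavy metals and glucocorticoids. In pigment cells, some enzymes of melanin synthesis also bind zinc.

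The coding sequences of MT2A, MT1X and MT1E are shown because these were the metallothioneins with enough reads to test and because their likeness limits how well reads can be assigned. They come from GENCODE release 29 transcripts of hg38, and cysteine codons are in capitals.
MT2A: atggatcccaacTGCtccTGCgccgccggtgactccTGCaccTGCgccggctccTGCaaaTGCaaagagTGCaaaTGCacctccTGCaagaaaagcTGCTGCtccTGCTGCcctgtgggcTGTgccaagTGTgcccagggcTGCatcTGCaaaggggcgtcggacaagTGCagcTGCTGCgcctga
MT1X: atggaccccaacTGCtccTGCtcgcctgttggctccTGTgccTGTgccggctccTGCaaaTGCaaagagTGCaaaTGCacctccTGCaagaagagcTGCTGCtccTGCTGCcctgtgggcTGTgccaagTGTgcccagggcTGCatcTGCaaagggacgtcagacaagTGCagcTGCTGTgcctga
MT1E: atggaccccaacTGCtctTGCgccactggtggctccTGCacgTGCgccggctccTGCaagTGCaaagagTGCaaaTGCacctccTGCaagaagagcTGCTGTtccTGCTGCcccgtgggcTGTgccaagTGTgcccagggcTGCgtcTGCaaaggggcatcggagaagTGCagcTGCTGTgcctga
Each of the 6 metallothionein coding sequences had 186 bases and 61 codons before the stop, of which 20 (32.8%) encode cysteine. Between pairs of them, 88.7% to 95.2% of bases were identical (median 91.4% over 15 pairs), and MT1X and MT2A shared 92.5%. SLC30A1, by contrast, had 507 codons, 18 of them (3.55%) for cysteine. Over whole transcripts, the share of distinct 50-base windows also found in another gene was 18.3% for MT1X, 16.5% for MT1G, 9.87% for MT1M, 7.1% for MT1E, 3.02% for MT2A, 1.22% for MT1F and 0% for SLC30A1. Windows were pooled over all transcripts of a gene. For MT1X the other genes included AC026461.1, which overlaps it, beside metallothionein paralogs. The split of reads between metallothionein paralogs is therefore an estimate, and the low counts of the minor members are uncertain.

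Promoter sequence was at hand for MT2A, MT1X and SLC30A1, and not for MT1E, MT1F, MT1G and MT1M. The core of the metal response element was searched as TGCACNC and TGCGCNC on both strands in the 250 bases before each RefSeq start (GRCh38.p14). A base can lie in more than 1 match. MT2A had 7 matches, MT1X 4 and SLC30A1 1. Of 35116 RefSeq promoters of this length, 0.0313% had at least 7 matches, 0.37% at least 4 and 24.8% at least 1, and the median was 0. A match is a description of the letters, not of a bound site. The whole MT2A window lay inside the first exon of the longer GENCODE transcript, whose start is 385 bases upstream of the RefSeq start, so that only 30 bases with 2 matches are shown. For MT1X, the last 46 bases of the window lay in a GENCODE exon and are left out. The SLC30A1 window is shown whole. Its RefSeq start lies 419 bases upstream of the GENCODE start, and the bases between these starts were not searched. Stretches are given on the plus strand for MT2A (chr16:56608408-56608437) and MT1X (chr16:56682220-56682423) and on the minus strand for SLC30A1 (chr1:211579162-211579411), with matches in capitals.
MT2A: cgcggcccGTGTGCAgagccgggTGCGCCC
MT1X: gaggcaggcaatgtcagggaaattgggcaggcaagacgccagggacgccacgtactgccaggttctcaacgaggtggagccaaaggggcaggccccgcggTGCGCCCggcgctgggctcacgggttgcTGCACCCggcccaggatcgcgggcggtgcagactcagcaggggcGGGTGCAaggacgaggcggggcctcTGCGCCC
SLC30A1: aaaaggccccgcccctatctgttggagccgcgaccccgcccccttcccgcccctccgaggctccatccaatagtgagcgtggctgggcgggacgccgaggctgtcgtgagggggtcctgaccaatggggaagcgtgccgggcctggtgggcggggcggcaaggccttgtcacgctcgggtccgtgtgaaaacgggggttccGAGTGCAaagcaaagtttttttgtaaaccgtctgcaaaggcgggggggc

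Expected counts per library summed to between 15643706 and 23072513. CD4, the gene aimed at, stood at 899.6 to 1035.5 TPM (transcript abundance scaled for length and depth) in the libraries with guides and at 0.53 to 5.61 TPM in those without, so all 15 libraries matched their guide labels. Of 7 melanocyte lineage markers, SOX10 was at 122.4 to 237.1 TPM and S100B at 34.9 to 195.4 TPM, while MLANA did not exceed 0.53 TPM and was not tested. Among T cell markers CD3D was at 0 in all libraries and CD3E did not exceed 0.06 TPM. Summed T cell markers were 30.2 to 31.7 TPM without an activation domain, 72.8 to 80.5 TPM in the other lines without guides and 41.5 to 54.9 TPM with guides, nearly all of it IL7R. Against no activation domain, 1 of 3 tested T cell markers (IL7R) rose and 0 fell with VP64, and 1 rose and 2 (PTPRC and TRAC) fell with p65, both without guides. Of all tested genes, 47.6% passed there with VP64 (23.6% higher and 24% lower) and 49.7% with p65 (24.7% higher and 24.9% lower). PTPRC averaged 1.12 TPM without an activation domain and TRAC 1.96 TPM. Summed myeloid markers were 57.7 to 67.1 TPM without an activation domain, 61.9 to 81.9 TPM in the other lines without guides and 93.5 to 108.8 TPM with guides, mostly CD68. In the same comparisons without guides, 1 of 5 myeloid markers (CD68) rose and 3 (CD14, CSF1R and ITGAM) fell with either domain, with medians of -0.99 and -1.40. Here too, 47.6% and 49.7% of all tested genes passed. CSF1R averaged 11.7 TPM without an activation domain and 6.14 and 4.96 TPM in the VP64 and p65 lines without guides, and CD14 averaged 3.11, 0.75 and 1.03 TPM. Epithelial markers summed to 57.1 to 76.5 TPM and fibroblast and endothelial markers to 2.39 to 11 TPM over all libraries. Summed melanocyte markers, mostly SOX10 and S100B, were 185.3 to 226.8 TPM without guides. They were 388.4 to 456.9 TPM in the VP64 line with guides and 275.6 to 361.7 TPM in the p65 line with guides. S100B averaged 170.6 and 125.8 TPM in the VP64 and p65 lines with guides and 54.8 and 45.1 TPM without. With guides, 4 of 6 tested melanocyte markers rose and 0 fell in the VP64 lines, where 40.6% of all genes passed. In the p65 lines 3 rose and 1 fell, where 38.9% passed. The part of these marker levels in the metallothionein results was not tested. In bulk RNA, fewer cells with a transcript and less of it per cell cannot be told apart.

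MT2A made up nearly all metallothionein RNA. By mean TPM over the 15 libraries, MT2A ranked 107 among all genes, MT1X 569 and SLC30A1 9858. Their medians were 1554, 243.6 and 5.34 TPM. MT1E had a median of 2.41 TPM, MT1G 1.35 TPM, MT1F 0.74 TPM and MT1M 0.27 TPM. Of 21 metallothionein entries in the tables, pseudogenes included, 14 had no count in any library. MT2A held 93.3% to 95.8% of metallothionein counts in a library, MT1X 3.93% to 6.45% and all others together 0.142% to 0.267%. On chromosome 16 the metallothionein genes form a cluster, with MT4 and MT3 upstream of MT2A and the MT1 genes downstream. MT1X lies 74.2 kb from the start of MT2A, so the transcribed pair stood at opposite ends of the MT1 array, with genes of few or no counts between them.

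**Figure D1:**
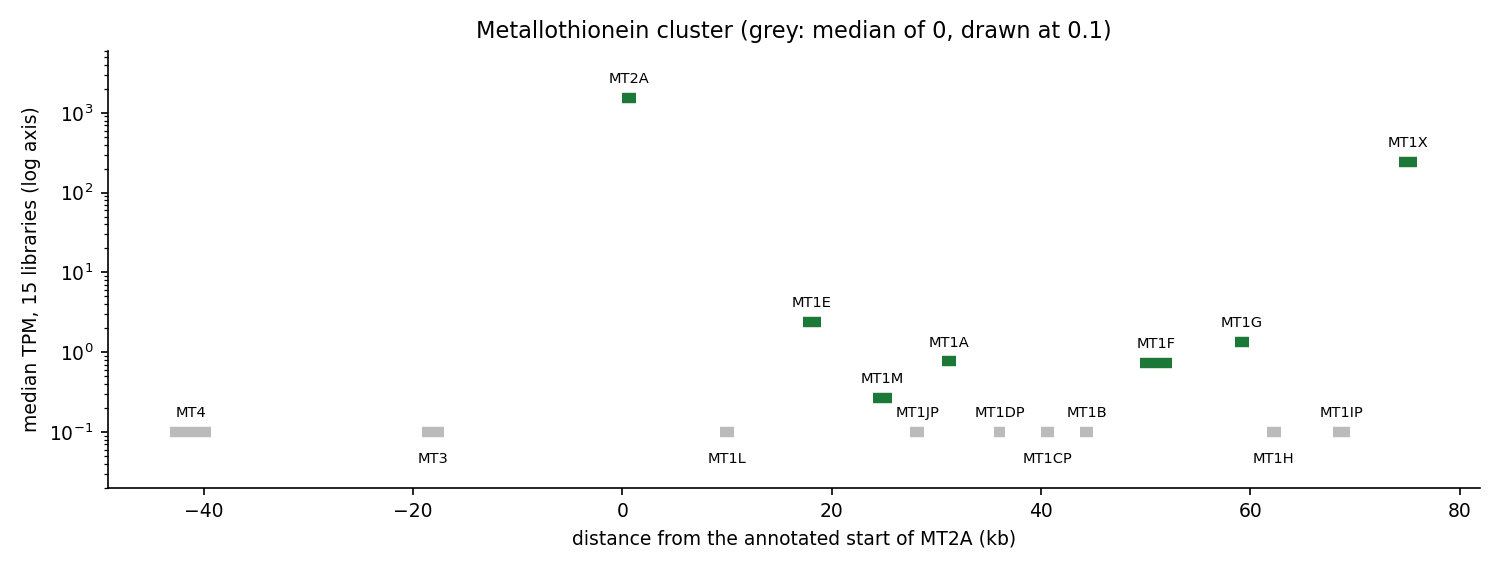
Median TPM over the 15 libraries (log axis) of each metallothionein gene of the chromosome 16 cluster, against distance from the annotated start of MT2A in kb. Bars span the genes, grey bars mark genes with a median of 0 drawn at 0.1, and MT2A and MT1X stand far above MT1E, MT1G, MT1A, MT1F and MT1M.

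Genes were tested with edgeR's quasi-likelihood test on rounded expected counts over all 15 libraries, and passed at an adjusted p under 0.05. Of the 7 members, 4 (MT2A, MT1X, MT1E and SLC30A1) passed the filter on low counts, among 14961 genes tested. CPM below is counts per 1000000 with TMM scaling, not scaled for length. With guides in the VP64 lines, 2 members rose and 0 fell, where 40.6% of all tested genes passed (19.3% higher and 21.3% lower). With guides in the p65 lines, 0 members passed in edgeR, 0 had an unadjusted p under 0.05 and 0 passed in DESeq2, where 38.9% of all genes passed (18.7% higher and 20.2% lower). Between p65 and VP64 without guides, 0 members passed in edgeR, 1 (MT2A) had an unadjusted p under 0.05 and 0 passed in DESeq2, where 2.11% of all genes passed (0.388% higher and 1.72% lower). Between p65 and VP64 with guides, 1 member was higher and 2 lower with p65, where 7.92% of all genes passed (3.72% higher and 4.2% lower). Against the line without an activation domain, 1 member rose and 1 fell in the VP64 line without guides, where 47.6% of all genes passed (23.6% higher and 24% lower). In the p65 line without guides 1 rose and 1 fell, where 49.7% passed (24.7% higher and 24.9% lower). With guides, 2 members rose and 0 fell in the VP64 line, where 53.1% of all genes passed (26% higher and 27.1% lower). In the p65 line with guides 1 rose and 1 fell, where 53.3% passed (25.8% higher and 27.5% lower). The VP64 line with guides had 2 members higher and 1 lower than the p65 line without guides, where 45.6% passed (21.6% higher and 23.9% lower). Between the p65 line with guides and the VP64 line without, 0 members passed in edgeR and 1 had an unadjusted p under 0.05, where 35.4% of all genes passed (17% higher and 18.3% lower). In the difference between the 2 guide effects, 1 member was lower, where 0.956% of all genes passed (0.769% higher and 0.187% lower). With 4 tested members, the shares of calls against the line without an activation domain were near those of all genes. These comparisons share libraries, so their values stand side by side and are not independent.

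**Figure D2:**
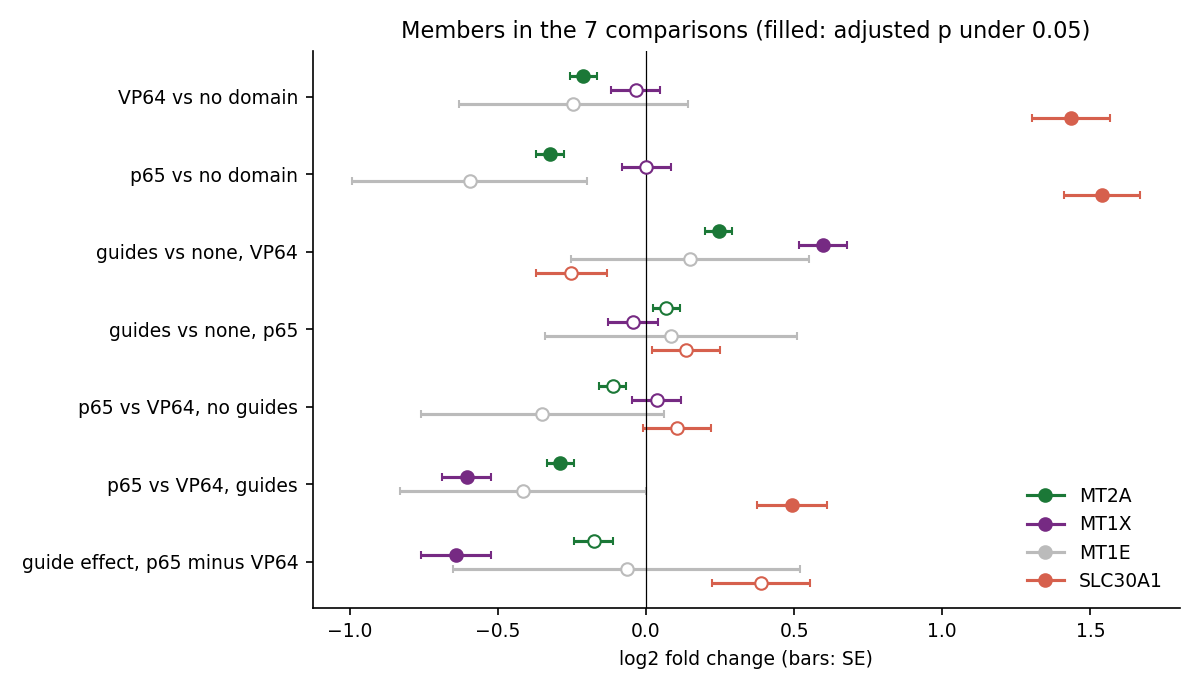
Log2 fold change with its SE (edgeR, 3 libraries per line) of the 4 tested members in 7 comparisons, with filled points where the adjusted p was under 0.05. SLC30A1 lies far to the right against the line without an activation domain, MT1X and MT2A have filled points to the right for guides in the VP64 lines, and MT1E has wide bars and no filled point.

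MT2A (ENSG00000125148.6, hg38, chromosome 16, 56608199 to 56609497, plus strand) encodes the most widely expressed human metallothionein. Its level was 1735, 1753 and 1688 TPM without an activation domain. Without guides it was 1594, 1496 and 1485 TPM with VP64 and 1392, 1396 and 1517 TPM with p65. With guides it was 1782, 1852 and 1822 TPM with VP64 and 1485, 1554 and 1392 TPM with p65. The VP64 line with guides and the line without an activation domain were high, and the other 3 lines overlapped each other below them. Behind these levels stood 9320 to 13915 counts per library. With guides in the VP64 lines, MT2A rose by 0.25 on the log2 scale (SE of 0.0457, edgeR adjusted p = 0.000158), 641.1 ± 8.7 against 540.6 ± 23.5 CPM (SD, n = 3), and the libraries did not overlap. Guides in the p65 lines gave 0.07 (SE 0.0458, adjusted p = 0.252), with overlapping libraries. Leaving out replicate C of the p65 line without guides moved this to 0.13 (adjusted p = 0.0368). The difference between the 2 guide effects on MT2A did not pass (-0.18, SE 0.0647, adjusted p = 0.247), so the effects are not shown to differ.

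Against the line without an activation domain (626.1 ± 20.9 CPM), log2 MT2A fell by 0.21 (SE 0.0457, adjusted p = 0.000583) in the VP64 line without guides. It fell by 0.32 (SE 0.0457, adjusted p = 4.21e-06) in the p65 line without guides and by 0.25 (SE 0.0457, adjusted p = 6.26e-05) in the p65 line with guides. None of these 3 lines overlapped the line without an activation domain in CPM. The VP64 line with guides did overlap it (0.03, SE 0.0456, adjusted p = 0.558). With guides, MT2A was lower with p65 than with VP64, at 0.819 times its mean CPM (log2 fold change -0.29, adjusted p = 0.000239). Without guides the difference of -0.11 did not pass (SE 0.0457, adjusted p = 0.257). In the order of mean CPM from the VP64 line with guides down, only the step from the line without an activation domain to the VP64 line without guides separated neighbours, and 6 of the 10 pairs of lines differed.

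MT1X (ENSG00000187193.8, hg38, chromosome 16, 56682424 to 56684196, plus strand) is a member of the MT1 group of isoforms. Its level was 253.7, 226.9 and 223.5 TPM without an activation domain. Without guides it was 246.9, 223.9 and 237.7 TPM with VP64 and 242.5, 243.6 and 261.1 TPM with p65. With guides it was 310.4, 412.5 and 339.3 TPM with VP64 and 252.8, 230.2 and 211.3 TPM with p65. Only the VP64 line with guides stood apart, above every other library, and the other 4 lines overlapped. Counts were 436 to 863 per library. The deposited effective length of MT1X was 128.3 to 139.8 bases, although its main transcript has 450 bases, and its TPM depends on that value. The long noncoding gene AC026461.1 overlaps MT1X on the same strand and had 0 counts in total.

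With guides in the VP64 lines, MT1X rose by 0.60 on the log2 scale (SE of 0.0818, edgeR adjusted p = 4.1e-06), 39.1 ± 4.82 against 25.9 ± 1.31 CPM (SD, n = 3). In the p65 lines the change was -0.04 (SE 0.0838, adjusted p = 0.724). Here the difference between the 2 guide effects itself passed, at -0.64 for p65 minus VP64 (SE 0.117, adjusted p = 0.00599). It ran from -0.71 to -0.53 when single libraries were left out, with adjusted p from 0.00259 to 0.0273. With an offset from the deposited effective lengths it was -0.67 and no longer passed (adjusted p = 0.0679). With guides, MT1X was lower with p65 than with VP64, at 0.661 times its mean CPM (log2 fold change -0.60, SE 0.0822, adjusted p = 4.06e-05). The VP64 line with guides also exceeded the line without an activation domain (0.56, SE 0.081, adjusted p = 4.13e-06). The remaining lines were close, with differences from the line without an activation domain of -0.04 (SE 0.0833, adjusted p = 0.76) for VP64 and 0.0010 (SE 0.0825, adjusted p = 0.993) for p65 without guides, and 4 of 10 pairs of lines differed, all with the VP64 line with guides.

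**Figure D3:**
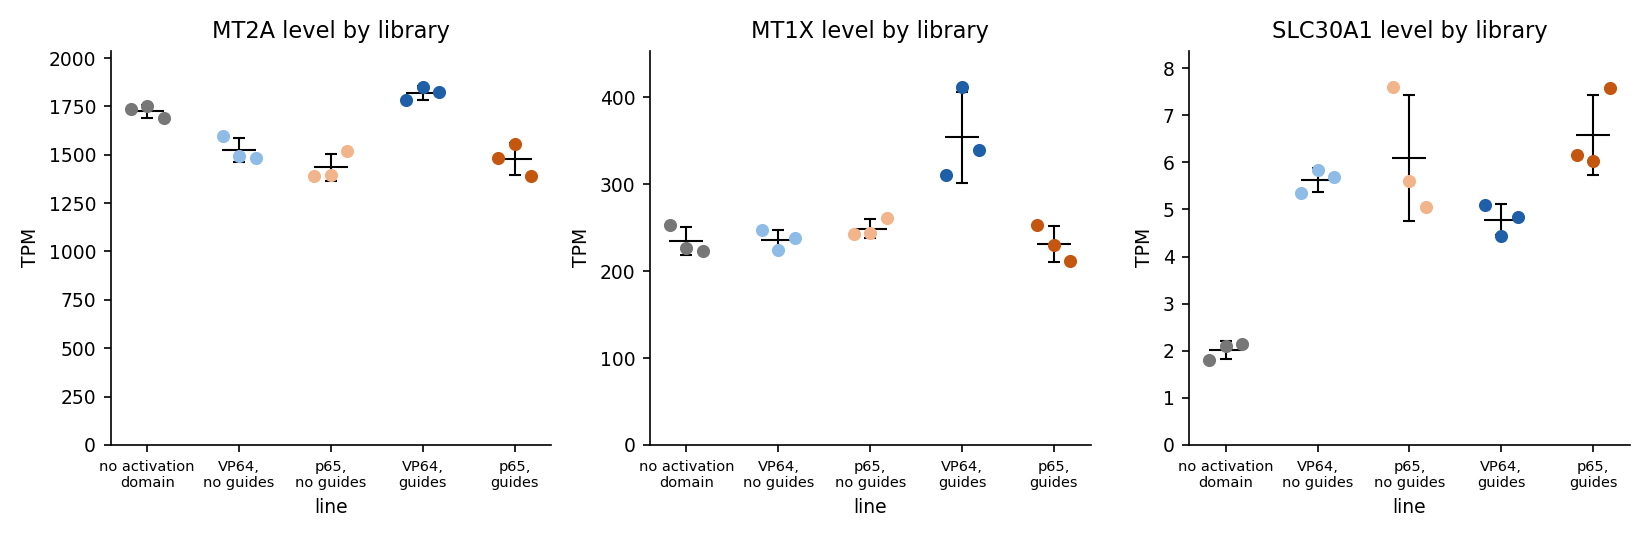
TPM of MT2A, MT1X and SLC30A1 in each of the 15 libraries by line (points), with the mean and SD of the 3 libraries of a line (bars). MT1X is raised in the VP64 line with guides alone, and SLC30A1 is between 1.8 and 2.15 TPM without an activation domain and above 4 TPM in every other library.

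Summed over all metallothionein entries, which removes the uncertainty of splitting reads among them, counts were 654.2 ± 21.7 CPM without an activation domain (SD, n = 3). The sums were 567.7 ± 24.4 CPM with VP64 and 527.8 ± 30 CPM with p65 when guides were absent. They were 681.5 ± 11.1 CPM with VP64 and 551.8 ± 30.3 CPM with p65 when guides were present. The sum followed MT2A, its main component, and no test was run on it. The ratio of MT2A to MT1X in TPM was 7.37 ± 0.467 without an activation domain and 5.2 ± 0.642 in the VP64 line with guides. It was 6.46 ± 0.215 and 5.76 ± 0.0436 in the VP64 and p65 lines without guides, and 6.4 ± 0.469 in the p65 line with guides.

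MT1E (ENSG00000169715.14, chromosome 16, 56625475 to 56627112, plus strand), another MT1 isoform, had 8 to 24 counts per library. Counts were 13, 24 and 18 without an activation domain. Without guides they were 19, 8 and 16 with VP64 and 10, 12 and 14 with p65, and with guides 17, 17 and 8 with VP64 and 13, 13 and 8 with p65. The widest contrast, p65 without guides against no activation domain, gave -0.59 as its log2 difference (SE 0.397, adjusted p = 0.229). The libraries of this pair did not overlap in CPM (0.509 to 0.624 against 0.708 to 1.16), while those of all other pairs did. None of the 10 pairs passed, and at this depth differences of the size seen for MT2A and MT1X were not detectable in MT1E, with SE of 0.387 to 0.425 in the comparisons of 2 lines listed above.

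MT1F (ENSG00000198417.6, chromosome 16, 56657694 to 56660698, plus strand), MT1G (ENSG00000125144.13, 56666731 to 56668065, minus strand) and MT1M (ENSG00000205364.3, 56632233 to 56633986, plus strand) failed the filter and were not tested. MT1F, with 1 to 7 counts a library, summed over the 3 libraries of a line to 13 counts (exact 95% Poisson interval 6.92 to 22.2) without an activation domain. Its sums were 5 (1.62 to 11.7) and 18 (10.7 to 28.4) in the VP64 and p65 lines without guides, and 12 (6.2 to 21.0) and 16 (9.15 to 26) in the VP64 and p65 lines with guides. These intervals cover counting error only. Without guides, MT1F libraries of the VP64 line (1 to 2 counts) and the p65 line (4 to 7 counts) did not overlap. The intervals of their sums did overlap, but overlap of such intervals is not a test, and none was run on MT1F. MT1G had 0 to 6 counts a library and was at 0 in 2 libraries, with line sums of 4 (1.09 to 10.2) to 13 (6.92 to 22.2). MT1M had 0 to 5 counts a library and was at 0 in 3 libraries, with line sums of 4 (1.09 to 10.2) to 10 (4.8 to 18.4). The highest sums of MT1E, MT1G and MT1M and their highest mean CPM were in the line without an activation domain. For each of these 3 genes the intervals of the lines with the lowest and highest sums overlapped. For MT1E these were 34 (23.5 to 47.5) in the p65 line with guides and 55 (41.4 to 71.6). Among 11 metallothioneins outside the members, MT1A had 0 to 5 counts a library and the other 10, MT3, MT4 and MT1H included, had 0 in all. A count of 0 in a library allows up to 3 counts.

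**Figure D4:**
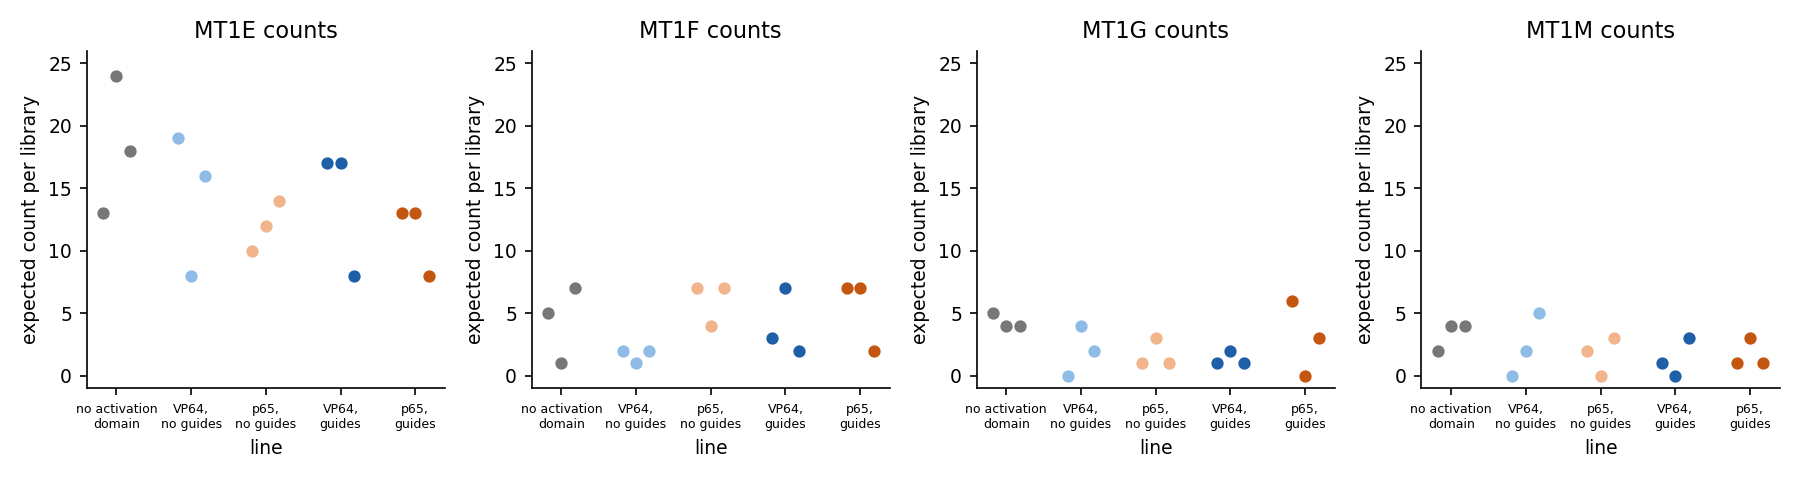
Expected counts per library of MT1E, MT1F, MT1G and MT1M by line (each point 1 library). MT1E runs from 8 to 24 counts, the other 3 stay at 7 or below, and many lines overlap.

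SLC30A1 (ENSG00000170385.9, hg38, chromosome 1, 211571568 to 211578742, minus strand) was higher with an activation domain than without. Its level was 1.8, 2.11 and 2.15 TPM without an activation domain. Without guides it was 5.34, 5.84 and 5.68 TPM with VP64 and 7.61, 5.61 and 5.06 TPM with p65. With guides it was 5.09, 4.43 and 4.83 TPM with VP64 and 6.16, 6.02 and 7.57 TPM with p65. Every library of the 4 lines with an activation domain lay above every library of the line without one. Counts were 142 to 647 per library.

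Against 8.63 ± 0.778 CPM (SD, n = 3) without an activation domain, mean SLC30A1 CPM was 2.71 times higher with VP64 without guides (log2 fold change 1.43, SE 0.131, edgeR adjusted p = 9.09e-09). It was 2.93 times higher with p65 without guides (1.54, SE 0.129, adjusted p = 2.28e-09). With guides the ratio was 2.29 for VP64 (1.18, SE 0.135, adjusted p = 1.58e-07) and 3.2 for p65 (1.68, SE 0.129, adjusted p = 3.26e-10). MT2A, which shares MTF1 as a known regulator, was lower in 3 of these same 4 comparisons, so that the exporter and the main metallothionein moved in opposite directions there. Guides did not move SLC30A1 past the threshold. In the VP64 lines the change was -0.25 (SE 0.12, adjusted p = 0.103), although the libraries did not overlap, and it passed with no low-count filter (adjusted p = 0.0219) and in a fit of only the libraries compared (adjusted p = 0.0209). In the p65 lines it was 0.14 (SE 0.114, adjusted p = 0.376), and 0.32 (adjusted p = 0.0167) without replicate A of the p65 line without guides, the highest library of that line. The difference of the guide effects was 0.39 (SE 0.166, adjusted p = 0.356).

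With guides, SLC30A1 was higher with p65 than with VP64 (27.6 ± 3.73 against 19.7 ± 1.67 CPM, log2 fold change 0.49, SE 0.119, edgeR adjusted p = 0.0111), and the libraries did not overlap. This call was lost without replicate B of the VP64 line with guides (0.43, adjusted p = 0.078), without replicate C of the p65 line with guides (0.37, adjusted p = 0.103) and with the effective-length offset (0.48, adjusted p = 0.0791). Without guides the difference was 0.10 (SE 0.115, adjusted p = 0.751). From the p65 line with guides down to the VP64 line with guides, no neighbours in the order of mean CPM differed, and only the last step, to the line without an activation domain, did. In all, 6 of the 10 pairs of lines differed.

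MTF1, the metal-sensing factor, was at 3.18 to 4.52 TPM. With guides its RNA fell by 0.23 on the log2 scale (adjusted p = 0.0153) in the VP64 lines and by 0.30 (adjusted p = 0.00195) in the p65 lines. In the p65 line without guides it was higher by 0.17 (adjusted p = 0.0462) than without an activation domain, and in the VP64 line without guides the value was 0.16 and did not pass.

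Of 10 further genes listed as zinc exporters (of the SLC30 family, and TMEM163), 7 were tested. With guides, 2 rose and 0 fell in the VP64 lines, and 1 rose and 1 fell in the p65 lines, where 40.6% and 38.9% of all tested genes passed. Without guides, against no activation domain, 1 rose and 1 fell with VP64, and 2 rose and 1 fell with p65, where 47.6% and 49.7% passed. With only 7 tested genes, the exporters' shares of calls cannot be set apart from those of all genes, and these comparisons share libraries. Median log2 fold changes were 0.04, -0.06, -0.07 and 0.02 in these 4 comparisons, and those of all tested genes were -0.0004, -0.01, -0.01 and -0.01. TMEM163, a zinc efflux protein of vesicles and the plasma membrane, had a pattern unlike SLC30A1. It averaged 8.2 TPM without an activation domain and 2.45 and 1.87 TPM in the VP64 and p65 lines without guides. In the VP64 and p65 lines with guides it averaged 7.28 and 5.08 TPM. It fell by 1.77 (adjusted p = 2.89e-08) and 2.16 (adjusted p = 1.94e-09) against no activation domain and rose by 1.55 (adjusted p = 4.17e-07) and 1.44 (adjusted p = 2.67e-06) with guides. SLC30A7, a zinc transporter of the Golgi, rose by 0.36 (adjusted p = 0.000534) and 0.46 (adjusted p = 3.65e-05) with VP64 and p65 against no activation domain. SLC30A4, a vesicular zinc transporter, rose by 0.36 (adjusted p = 0.00259) with p65 in that comparison and by 0.28 (adjusted p = 0.0199) with guides in the VP64 lines. SLC30A5 fell by 0.12 (adjusted p = 0.0391) with guides in the p65 lines.

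Of 14 zinc importers of the SLC39 (ZIP) family, which bring zinc into the cytosol, 11 were tested. With guides, 5 rose and 1 fell in the VP64 lines, where 19.3% of all tested genes rose and 21.3% fell, and 6 rose and 0 fell in the p65 lines, where 18.7% rose and 20.2% fell. Without guides, against no activation domain, 6 rose and 1 fell with VP64, where 23.6% rose and 24% fell, and 4 rose and 1 fell with p65, where 24.7% rose and 24.9% fell. Median log2 fold changes were 0.09, 0.18, 0.14 and 0.07. SLC39A10 rose by 0.47 (adjusted p = 2.81e-07) and 0.67 (adjusted p = 1e-09) with guides in the VP64 and p65 lines, and SLC39A6 by 0.35 (adjusted p = 1.08e-06) and 0.41 (adjusted p = 1.31e-07). Against no activation domain, SLC39A11 rose by 0.53 (adjusted p = 2.92e-07) and 0.60 (adjusted p = 4.14e-08) with VP64 and p65, and SLC39A9 by 0.35 (adjusted p = 2.43e-06) and 0.42 (adjusted p = 1.23e-07). SLC39A8, an importer of zinc, manganese and cadmium, fell by 0.28 (adjusted p = 0.000145) with guides in the VP64 lines. Between p65 and VP64 with guides, SLC39A10 and SLC39A8 were higher with p65, by 0.18 each (adjusted p = 0.0311 and 0.0328).

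**Figure D5:**
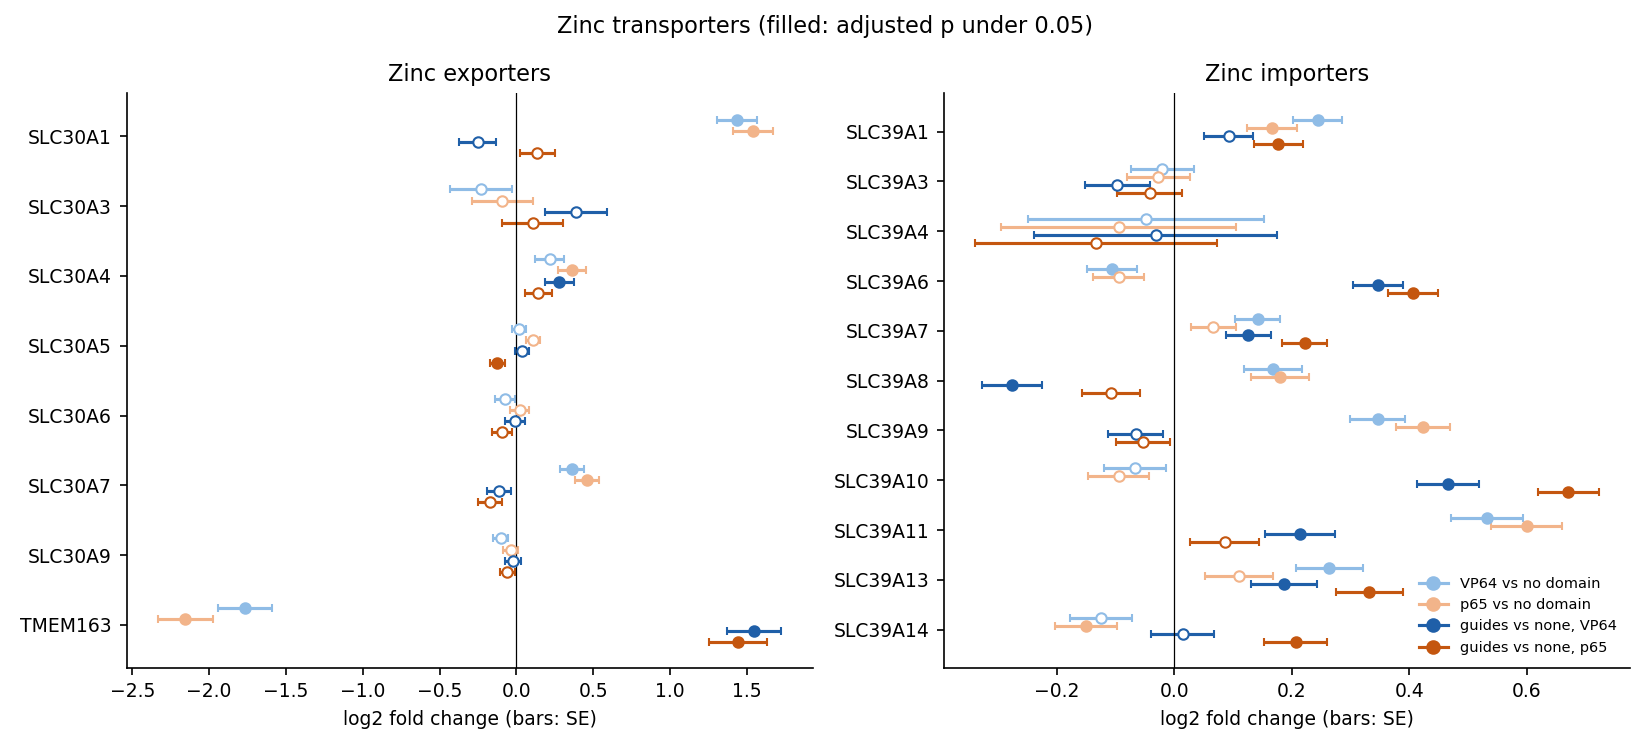
Log2 fold change with its SE of zinc exporters (left, SLC30A1 on top) and SLC39 importers (right) in 4 comparisons, with filled points where the edgeR adjusted p was under 0.05. SLC30A1 and TMEM163 lie on opposite sides against the line without an activation domain, and the importer changes are all smaller than 0.7 in size.

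Genes whose levels followed those of the tested members most closely over the 15 libraries were found by Pearson's r of log2(CPM + 0.5) among about 9382 genes averaging 10 CPM or more, as a description. All genes share these libraries and their depth, and the 15 points form 5 lines. For MT2A they were CTDSP1 (r = 0.94), IER3 (0.94) and NRP2 (0.93). IER3, an early response gene, averaged 378.7 CPM without an activation domain, 211.3 and 167.7 CPM in the VP64 and p65 lines without guides, and 371.6 and 238.1 CPM with guides. For MT1X they were MGST3 (0.89), PCDHGA11 (0.88) and TCEAL9 (0.86), and MGST3, a microsomal glutathione transferase, averaged 55.5 CPM in the VP64 line with guides and 40.1 to 45.2 CPM elsewhere. For SLC30A1 they were C6orf89, TMEM9B and GPR107 (0.97 each), all of them lowest in the line without an activation domain. For MT1E they were COG7 (0.86), PAFAH1B3 (0.80) and DMWD (0.78), at its few counts. By Spearman's rho, 2 of the 3 for MT1E and 0 of the 3 for each of MT1X, MT2A and SLC30A1 were among the closest 3. Among the members, r was 0.65 (rho 0.65) for MT1X with MT2A and -0.70 (rho -0.77) for MT2A with SLC30A1. For MT1X with SLC30A1 the measures differed, with r at -0.10 and rho at -0.59.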

How the data were processed

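The authors deposited 1 table per library. Per the file headers and the submitters' processing notes, reads were aligned with STAR to hg38 and RSEM gave expected counts, TPM and effective lengths (another unit, in bases) per gene. Tool versions, strandedness and settings: not given in the sources used here. Of 58813 entries, 58721 matched GENCODE release 29. The other 92, with at most 7 counts (3.65e-05%) in a library, were left out. Deposited expected counts were rounded and fitted with edgeR 4.0.16 (R 4.3.3), 1 coefficient per line, TMM factors of 0.9828 to 1.014, filterByExpr with a minimum count of 10, and Benjamini-Hochberg adjustment over 14961 genes, and the procedure was tested on simulated data. The typical coefficient of variation was 5.45%. Libraries of a line differed beyond counting noise (chi-square per gene of 2.47 to 10.3). Depth leaves members under about 10 counts imprecise.

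Named genes are all members, CD4, up to 3 tested genes of each list with the smallest p, and the 3 genes most correlated with each tested member. The marker genes MLANA, CD3D and CD3E, and also FKBP5, were named after their values were seen. Lists were metal sensing, zinc export and import, copper handling, oxidant and cadmium response, heat shock, glucocorticoid response and markers of 5 cell types. SCO2, with 2 entries, was dropped. Members and lists were chosen with earlier results of these data known. Alternatives were DESeq2 1.42.0 (size factors, Wald test), no filter, a mean of 1 CPM, fewer libraries, a replicate block, no rounding, a length offset and leaving out each library.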

Additional observations from a re-analysis of the deposited data

Results flagged for a closer look

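The response of MT1X to the guides differed between the nanobody lines. The guide effect in the p65 lines minus that in the VP64 lines was -0.64 on the log2 scale (SE 0.117, edgeR adjusted p = 0.00599 over 14961 genes), and the test of the difference itself drew attention to it. All 3 libraries of the VP64 line with guides were above all 3 of its partner without guides, while in the p65 lines the libraries overlapped. No other tested member passed in this difference. With the effective-length offset, the value for MT1X was -0.67 and no longer passed (edgeR adjusted p = 0.0679).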

How the results depend on the processing

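Of 406 values of tested members under the alternatives, 379 kept their direction and their side of the threshold, 4 lost and 4 gained a call, and 19 changed sign, all of them values that did not pass. The cause was not tested. The count of all genes that passed for p65 against VP64 without guides (315) became 545 with no low-count filter, 109 with the effective-length offset and 185 to 301 when single libraries were left out. With guides (1185) it became 706 with only the libraries compared, 437 with the offset and 681 to 1129 when single libraries were left out. The lowest of these was without replicate B of the VP64 line, and it was 709 without replicate C of the p65 line. The count for the difference of guide effects (143) became 360 with no filter, 247 in DESeq2, 31 with the offset and 91 to 176 when single libraries were left out. Guides in the p65 lines (5823) gave 3851 with the offset. Members that passed in the difference of guide effects went from 1 to 0 with the offset, and for guides in the p65 lines from 0 to between 0 and 1 when single libraries were left out.

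Values near 0 that changed sign were, over fits that left out single libraries, MT1E with guides (-0.13 to 0.40 in the VP64 lines, -0.0878 to 0.34 in the p65 lines), its difference of guide effects (-0.31 to 0.23) and VP64 against no activation domain (-0.47 to 0.0599). For MT1X they were VP64 (-0.0655 to 0.0153) and p65 (-0.0404 to 0.0484) against no activation domain, guides in the p65 lines (-0.11 to 0.0177) and p65 against VP64 without guides (-0.0164 to 0.0758). For SLC30A1 it was p65 against VP64 without guides (-0.079 to 0.22). With a filter at a mean of 1 CPM, MT1X in p65 against no activation domain was -0.0014.

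Replicate letters did not pair the libraries: 0 of 30 pairs with the same letter had a correlation over 0.1 and 2 of 15 libraries were closest to their own letter. With the letter as a replicate block, members that passed were 2, 0, 0, 3, 2 and 2 in the 6 comparisons of lines and 1 in the difference of guide effects, and 16 of the pairs of lines differed over the tested members. All genes that passed numbered 5917 and 5667 for guides in the VP64 and p65 lines, 275 and 1048 for p65 against VP64 without and with guides, 7000 and 7308 for VP64 and p65 against no activation domain, and 128 in the difference.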

Other observations

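Other stress and metal genes are counted here beside all 14961 tested genes, of which 47.6% passed with VP64 and 49.7% with p65 against no activation domain, and 40.6% and 38.9% with guides in the VP64 and p65 lines. Against no activation domain with VP64, the shares called of copper handling (4 of 9), oxidant response (5 of 10) and glucocorticoid response genes (4 of 7) were near that of all genes. All 5 oxidant response calls there were falls, where 24% of all genes fell. With p65 against no activation domain, the share of glucocorticoid response genes was the same and also near that of all genes. The share of oxidant response genes ran above that of all genes there. With guides, the shares of both lists ran above that of all genes. With so few genes in each list, this was not tested. Of 6 heat shock inducible genes, 6 fell with VP64 and 5 with p65 against no activation domain in edgeR, where 24% and 24.9% of all genes fell. With guides 3 rose and 2 fell in both pairs of lines. HSPA1A, an inducible chaperone, fell by 0.74 in both comparisons (adjusted p = 2.13e-10 and 1.92e-10) and rose by 0.77 (adjusted p = 1.94e-10) and 0.82 (adjusted p = 8.49e-11) with guides. HSPA1B, its near-identical copy, shares reads with it. Of 10 oxidant and cadmium response genes, 0 rose and 5 fell with VP64, and 1 rose and 6 fell with p65, against no activation domain. With guides 4 rose and 3 fell in the VP64 lines and 3 rose and 3 fell in the p65 lines. NQO1, a quinone reductase, fell by 0.66 in both comparisons and rose by 0.53 and 0.43 with guides, and FTH1, the ferritin heavy chain, rose by 0.47 and 0.44.

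Of 9 copper handling genes, 3 rose and 1 fell with guides in the VP64 lines and 3 rose and 0 fell in the p65 lines. Against no activation domain, 2 rose and 2 fell with VP64, and 2 rose and 1 fell with p65. ATOX1, a copper chaperone, fell by 0.37 (adjusted p = 2.78e-05) and 0.49 (adjusted p = 7.24e-07) there and rose by 0.31 in both pairs with guides. Of 7 tested glucocorticoid response genes, 3 rose and 1 fell with guides in the VP64 lines, 4 rose and 2 fell in the p65 lines, and against no activation domain 1 rose and 3 fell with either domain. KLF9, a transcription factor, rose by 1.67 (adjusted p = 2.41e-12) and 1.70 (adjusted p = 9.51e-13) with guides and fell by 1.12 (adjusted p = 6.15e-10) and 1.26 (adjusted p = 8.74e-11) against no activation domain. FKBP5, of the same list, went the other way from KLF9. It averaged 9.51 and 10.6 TPM in the VP64 and p65 lines with guides and 15.1 and 16.6 TPM without. In the line without an activation domain, FKBP5 averaged 13.4 TPM. The part of these genes in the metallothionein results was not tested.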
